A study of Homo sapiens with 6 samples.

Results

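The human genes named ZNF and a number encode zinc finger proteins, and those that lie on chromosomes other than 19 were followed here in A549, a long-established line of human lung adenocarcinoma cells. The members are all rows of the deposited table whose symbol is ZNF followed by a digit and whose chromosome is not 19. There were 57 such genes among the 4546 genes of the table, beside 53 ZNF genes on chromosome 19. The cells had received either DMSO, the solvent control, at a dilution of 1/1000, or mitoxantrone at 50 nM, an anthracenedione that poisons DNA topoisomerase II, and both groups were collected after 48 hours. Each group had 3 libraries, numbered 1 to 3. The table holds only genes with an absolute log2 fold change of at least 1.0003 and an adjusted p of at most 0.0497 in these same libraries. Every member had therefore been picked for its difference already, and passing a further test on these libraries is no independent evidence. A ZNF gene that is not in the table is called not listed, which does not mean unchanged.

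Most proteins of this family bind DNA through arrays of C2H2 zinc fingers, short modules in which cysteines and histidines hold a zinc ion and each finger reads a few bases. Many also carry a KRAB box, which recruits the scaffold protein TRIM28 and, through it, histone methylation and silencing of repeats and nearby genes. A smaller set carries a SCAN domain, which pairs one zinc finger protein with another, and the members with neither domain are a mixed group of activators, repressors and cofactors. The largest KRAB clusters of the human genome lie on chromosome 19, while the genes described here are spread over many chromosomes.

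Library totals ran from 20380674 to 21781220 reads with DMSO and from 16681380 to 19352443 with mitoxantrone. Normalized counts are reads divided by the authors' size factors (0.827 to 0.980 with mitoxantrone and 1.08 to 1.17 with DMSO), and FPKM values, which also correct for gene length, are the authors' own. Of 11 genes typical of A549 cells, 7 were listed, the keratin genes KRT8 and KRT19 and the cadherin gene CDH1 among them, with summed FPKM of 1620 to 1909 with DMSO and 4891 to 5158 with mitoxantrone. Leukocyte markers (3 of 7 listed, 0.87 to 1.04 and 3.85 to 4.14), a fibroblast marker (1 of 5, 3.09 to 3.51 and 1.21 to 1.53) and endothelial markers (2 of 4, at most 0.01 and 0.11 to 0.12) were low beside the A549 sums. Only listed markers enter these sums, so the levels of the others are unknown. The part of these markers in the results was not tested. The values are relative to the other RNA of each library, so fewer cells of a type, less RNA per cell and a change in total RNA cannot be told apart. Whether the replicates came from separate cultures is not stated, and p-values here measure only the spread between libraries, which can be technical.

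The listed ZNF genes outside chromosome 19 were mostly lower with mitoxantrone: 49 of the 57 fell and 8 rose (edgeR's quasi-likelihood test, adjusted p under 0.05). That is 86% lower, where 41.1% of all listed genes were called lower and 58.9% higher (100% in either direction, since the table was selected). The median log2 fold change was -1.24 over the members and 1.20 over all listed genes. In all 57 members the 3 mitoxantrone libraries lay wholly below (49) or wholly above (8) the 3 DMSO libraries, against 40.8% and 57.5% of all listed genes (98.3% in either direction). The falls were of moderate size beside those of other genes, with a median of -1.33 over the 49 lower members and -1.52 over the 1869 lower genes of the table.

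The libraries of a group were alike in what they held of these genes. Before scaling for depth, the members took 32284, 28303 and 30692 reads with DMSO 1 to 3, and 10037, 10802 and 12155 with mitoxantrone 1 to 3. Summed over the 49 lower members, FPKM was 232, 219 and 223 with DMSO and 83.9, 86.8 and 88.1 with mitoxantrone. The 8 higher members summed to 3.54, 3.95 and 4.37 FPKM with DMSO and 16.3, 14.6 and 14.7 with mitoxantrone, small sums beside those of the lower members. Within groups, mitoxantrone 1 was the lowest of its 3 libraries in 27 of the 49 lower members (55.1%, and 48.5% of all lower listed genes). DMSO 2 was the lowest of its 3 in 24 of the 49 (49.0%, and 31.7% of all lower listed genes).

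**Figure D1:**
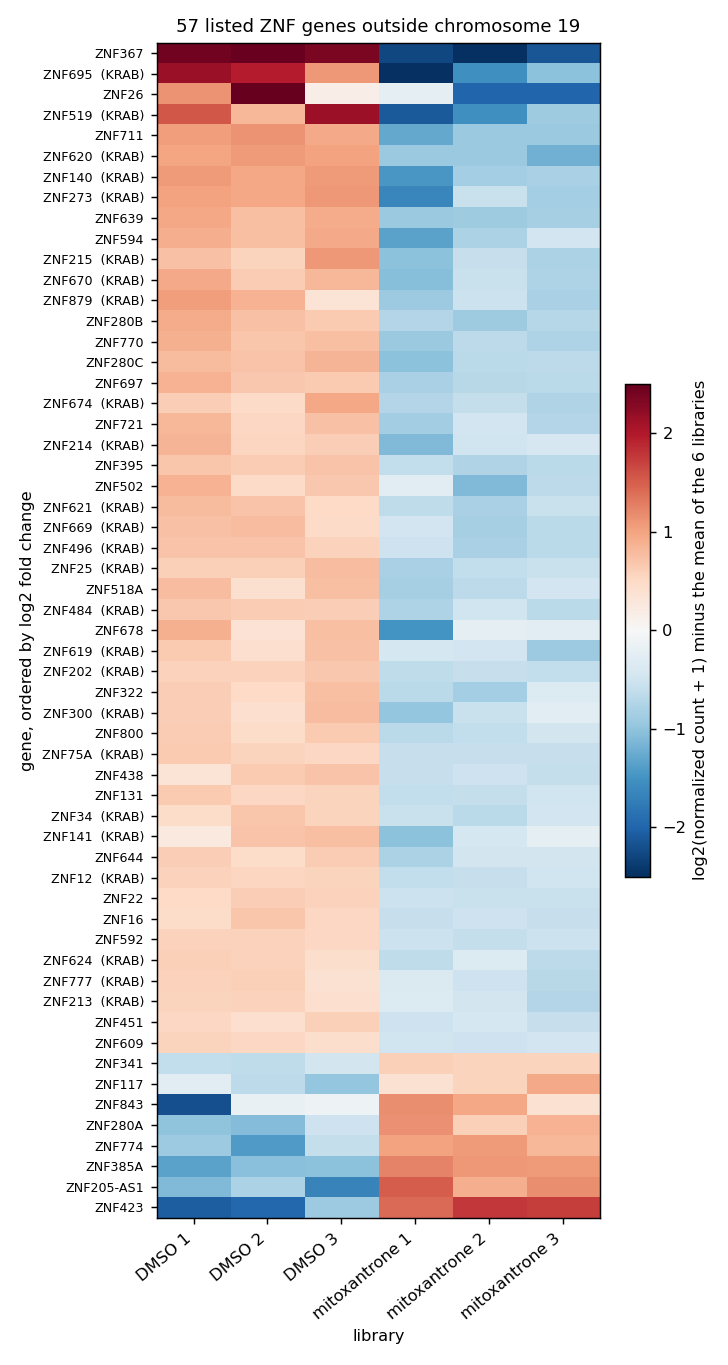
Each row is 1 of the 57 ZNF genes and each column 1 library. Colour is log2(normalized count + 1) minus the mean of the 6 libraries, limited to the range of the colour bar, and genes with a KRAB box are marked. Rows are ordered by log2 fold change. The upper 49 genes are redder in every DMSO library than in any mitoxantrone library, and the lowest 8 rows show the opposite.

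The members differed widely in level and so in precision. Mean FPKM of the lower members ran from 0.183 to 20.1 with DMSO (median 2.92), and their median with mitoxantrone was 1.13. The higher members started low, with a median of 0.143 FPKM that rose to 0.69. Their median coefficient of variation was 27.6% with DMSO, against 7.68% for the lower members. Of the 43 members with a mean of at least 50 normalized counts over all 6 libraries, 41 were lower and 2 higher (95.3% lower, beside 55% of the 2622 listed genes at that level). Of the 14 members under that level, 8 were lower and 6 higher (57.1% lower). Over all listed genes, 1442 of the 1869 lower and 1180 of the 2677 higher genes reached that level, so most genes under it were higher.

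**Figure D2:**
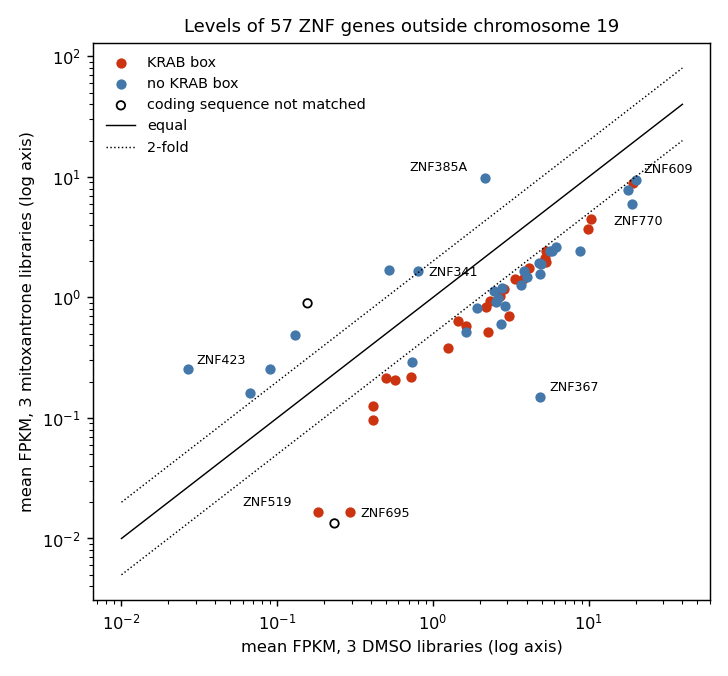
Each point is 1 of the 57 ZNF genes, with its mean FPKM over the 3 DMSO libraries on the horizontal axis and over the 3 mitoxantrone libraries on the vertical axis, both on log scales. The solid line marks equal levels and the dotted lines a 2-fold difference. All genes with a KRAB box lie below the line of equal levels, and ZNF367 lies farthest below it among genes above 1 FPKM with DMSO.

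A KRAB box was found in the coding sequence of 25 members, and each of the 25 fell (median -1.33). Of 30 members in which none was found, 23 were lower and 7 higher, with a median of -1.16. The other 2, ZNF26 and ZNF205-AS1, had no matched coding sequence. On chromosome 19, where 43 listed ZNF genes had a KRAB box, 41 of them were lower and 2 higher, and the 9 with none found were all lower. The share of annotated ZNF genes outside chromosome 19 that reached the table at all was close for both kinds. It was 25 of 122 where a KRAB box was found (20.5%) and 30 of 141 where none was found (21.3%). The number of fingers overlapped between the directions. Members had 1 to 28 fingers, with a median of 9 among the lower and 10 among the higher genes, and the 26 members with at least 10 fingers split into 22 lower and 4 higher.

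**Figure D3:**
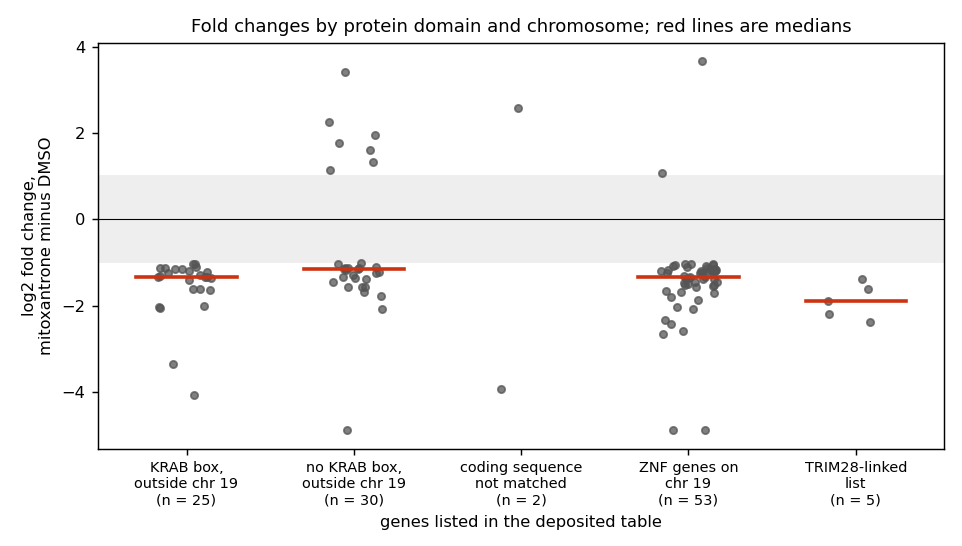
Each point is the log2 fold change of 1 listed gene, grouped by KRAB box and chromosome, beside the listed genes of a broad TRIM28-linked list. Red lines are group medians and the grey band marks changes under 2-fold, which the table does not hold. The 25 genes with a KRAB box outside chromosome 19 all lie below zero, while the 30 in which none was found include 7 above it.

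Among genes with a KRAB box, the largest falls at a mean of at least 50 normalized counts in the DMSO group were those of ZNF620, ZNF140 and ZNF273. ZNF620 (ENSG00000177842; chromosome 3, 40547483 to 40560227) had 142, 152 and 145 normalized counts with DMSO 1 to 3 and 37.5, 37.3 and 30.6 with mitoxantrone 1 to 3. Gene positions here and below are copied from the table, which names no genome build. The groups were tight and far apart, and the level dropped 4.18-fold (log2 fold change -2.06 ± 0.18 SE, adjusted p = 5.0e-14). ZNF140, a KRAB repressor gene on chromosome 12 (133656424 to 133684130), had 316, 294 and 316 with DMSO and 54.4, 83.5 and 85.7 with mitoxantrone. Mitoxantrone 1 was the lowest of these libraries, and the groups did not overlap at -2.04 ± 0.14 (adjusted p = 5.2e-17). ZNF273 on chromosome 7 was rarer, at 66.0, 64.1 and 69.0 against 9.68, 21.4 and 17.3, and fell by 2.02 on the log2 scale (SE 0.26, adjusted p = 3.8e-09).

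ZNF695 and ZNF519, also with a KRAB box, showed larger folds on very few reads. ZNF695 had 26.6, 23.2 and 12.1 normalized counts with DMSO and 0, 1.13 and 2.04 with mitoxantrone, from 70 and 3 reads over the groups. The ratio of the scaled reads was 18.5, with an exact 95% interval of 6.06 to 91.7 that covers counting error only. The fitted log2 fold change of ZNF695 was -4.07 ± 0.64 (adjusted p = 2.6e-07), or -4.88 without mitoxantrone 3. ZNF519 had 95 reads against 7, a ratio of 10.7 (interval 5.01 to 27.4), with a fitted value of -3.36 ± 0.51. For both genes nearly all transcripts in the count came from the DMSO libraries, and the size of the fall is poorly fixed.

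A SCAN domain was found in 4 of the 25 members with a KRAB box, ZNF215, ZNF496, ZNF202 and ZNF213, each of which fell (median -1.28). ZNF202 is known as a repressor of lipid metabolism genes. It had 461, 462 and 496 normalized counts with DMSO and 198, 205 and 199.95 with mitoxantrone, with no overlap and little spread (-1.23 ± 0.10, adjusted p = 2.6e-14). ZNF496, whose protein binds the histone methyltransferase NSD1, was the most abundant of the 4 by FPKM and dropped from 9.90 to 3.72, a log2 fold change of -1.33 ± 0.08. ZNF215, which lies in the imprinted region of chromosome 11 linked to Beckwith-Wiedemann syndrome, had 51.4, 45.5 and 66.4 against 14.5, 20.3 and 17.3 (-1.64 ± 0.27, adjusted p = 6.1e-07). ZNF213 moved least, at -1.03 ± 0.10.

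The largest change of all 57 members was in a gene in which no KRAB box was found. ZNF367 (ENSG00000165244; chromosome 9, 99148223 to 99180611), which encodes a protein with 2 recognised fingers that is known as an activator of a globin gene in erythroid cells, had 335, 348 and 319 normalized counts with DMSO 1 to 3. With mitoxantrone 1 to 3 it had 12.1, 7.90 and 13.3. The groups differed 29.7-fold and lay far outside each other's spread (334 ± 14.7 against 11.1 ± 2.82, SD, n = 3 libraries each; log2 fold change -4.89 ± 0.19, adjusted p = 2.5e-25). In FPKM, ZNF367 went from 4.89, above the median of the lower members, to 0.15. The next largest fall at a mean of at least 50 with DMSO was that of ZNF711.

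ZNF711 (chromosome X, 84498997 to 84528368) encodes a partner of the histone demethylase PHF8 and is a known gene of X-linked intellectual disability. It had 259, 275 and 243 normalized counts with DMSO and 50.8, 65.5 and 65.3 with mitoxantrone, a 4.25-fold drop (-2.09 ± 0.14, adjusted p = 6.0e-17). ZNF639, a gene on the long arm of chromosome 3 in a region often amplified in squamous carcinomas, had 670.5, 578 and 649 against 179, 185 and 191 and fell by 1.77 (SE 0.10, adjusted p = 1.8e-19). ZNF594, with 21 fingers, had 298, 268 and 307 against 61.7, 91.4 and 113 (-1.70 ± 0.14). In all 3 genes each mitoxantrone library was below the lowest DMSO library, and mitoxantrone 1 was the lowest library.

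Other members with described roles fell by smaller amounts than these 3 genes. ZNF395, a factor linked to hypoxia that also binds papillomavirus DNA, had 441, 424 and 451 normalized counts against 179, 163 and 170.4 (-1.36 ± 0.11, adjusted p = 4.2e-15). ZNF518A had 1102, 849.9 and 1086 against 363, 409.8 and 462 (-1.30 ± 0.10). ZNF451, which encodes a SUMO ligase, had 757, 704 and 799 against 370.2, 387 and 353 (-1.03 ± 0.09, adjusted p = 9.2e-14). Groups did not overlap in any of these 3 genes. ZNF131, which carries a BTB domain, and ZNF644, a partner of the histone methyltransferases EHMT1 and EHMT2, fell by 1.15 and 1.12. Of the 53 genes in a list of ZNF genes with described roles, 13 were listed as members, 10 lower and 3 higher.

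The 5 members with the highest mean FPKM over the 6 libraries were all lower, and most of them by little more than 2-fold. ZNF609, whose protein works with the cohesin loader NIPBL and the Integrator complex and whose locus also gives a well-known circular RNA, was the most abundant, at 20.1 FPKM with DMSO and 9.47 with mitoxantrone. It had 4724, 4620.1 and 4353 normalized counts against 2295, 2241 and 2305. These libraries were tight enough to separate the groups clearly at -1.002 ± 0.07 (adjusted p = 7.7e-18), the smallest fall of the 49. ZNF592, part of a nuclear complex with ZNF687 and ZMYND8, had 2762, 2761 and 2633 against 1270.2, 1219 and 1274 (-1.12 ± 0.07, 17.8 to 7.76 FPKM). ZNF777 went from 19.4 to 8.86 FPKM (-1.05 ± 0.09) and ZNF12 from 10.4 to 4.49 (-1.12 ± 0.08), both with a KRAB box.

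ZNF770 was the exception among the abundant members. It had 2071, 1803 and 1889.7 normalized counts with DMSO and 588, 710.0 and 651 with mitoxantrone, a 2.96-fold drop (-1.56 ± 0.08, adjusted p = 4.0e-21). In FPKM, ZNF770 was close to ZNF609, ZNF777 and ZNF592 with DMSO, at 18.9, and below all 3 with mitoxantrone, at 6.01. The members nearest the authors' threshold of size were ZNF609 and ZNF451 among the lower and ZNF341 and ZNF117 among the higher genes, and values just outside it are not analysed here. The glmTreat test of edgeR asked for changes beyond 2-fold, and the share of all listed genes that passed it was not counted. Of the members, 38 of the 49 lower and 5 of the 8 higher ones passed. These counts are therefore no comparison of the members with other listed genes. ZNF609 (adjusted p = 0.24), ZNF451 (0.18), ZNF213 (0.18), ZNF777 (0.13), ZNF141 (0.14), ZNF214 (0.057), ZNF341 (0.064) and ZNF117 (0.065) were among those that did not.

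The 13 lower members described only here had falls of intermediate size, from -1.61 to -1.10, and mean FPKM of 0.41 to 5.81 with DMSO and 0.127 to 2.44 with mitoxantrone. A KRAB box was found in 7 of them, ZNF879, ZNF674, ZNF25, ZNF484, ZNF300, ZNF34 and ZNF624, whose median of -1.29 was near the -1.20 of the 6 others, ZNF697, ZNF678, ZNF322, ZNF800, ZNF438 and ZNF16. ZNF484 had 175, 172 and 169.8 normalized counts with DMSO and 64.1, 77.9 and 68.4 with mitoxantrone, among the tightest of the DMSO values. ZNF678 was uneven, at 143, 98.5 and 131 against 26.6, 65.5 and 63.3, with mitoxantrone 1 far below the other libraries of its group. Even so its highest mitoxantrone library lay below its lowest DMSO library (-1.24 ± 0.20, adjusted p = 4.5e-07).

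**Figure D4:**
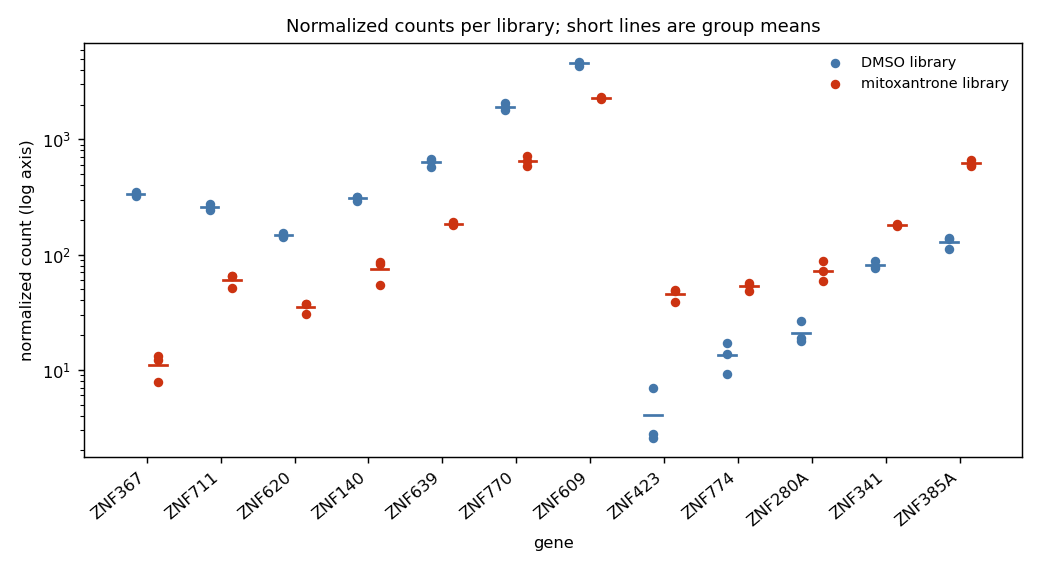
Points are the normalized counts of single libraries on a log axis for 12 of the ZNF genes, DMSO in blue and mitoxantrone in red, and short lines are group means. ZNF367 falls from 334 to 11.1 and ZNF385A rises from 129 to 619, and in none of the 12 genes do the groups overlap.

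Of the 8 members that rose, ZNF385A reached the highest level. ZNF385A (ENSG00000161642; chromosome 12, 54762917 to 54785082) encodes a protein that is induced by p53 and is known to steer p53 toward genes of cell cycle arrest. It had 111, 137 and 139 normalized counts with DMSO and 667, 603 and 589 with mitoxantrone. The lowest mitoxantrone library was well above the highest DMSO library, and the level rose 4.80-fold (129 ± 15.2 to 619 ± 41.5; log2 fold change 2.26 ± 0.11, adjusted p = 5.0e-22). In FPKM it went from 2.16 to 9.79, next to the 9.47 of ZNF609 with mitoxantrone. Of a list of 5 ZNF genes linked to p53, ZNF385A was the only one listed.

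ZNF423, a gene with 28 fingers whose protein works with SMAD proteins in BMP signalling and in the commitment of fat cell precursors, had the largest rise. It had 2.57, 2.79 and 6.90 normalized counts with DMSO and 38.7, 49.7 and 47.9 with mitoxantrone, from 14 and 123 reads. The ratio of the scaled reads was 11.1 (exact 95% interval 6.37 to 20.9, counting error only). The fitted log2 fold change was 3.43 ± 0.38 (adjusted p = 7.5e-11), or 4.03 without DMSO 3, the highest of the DMSO libraries. At 0.253 FPKM with mitoxantrone it was still rarer than most members that fell.

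ZNF774 and ZNF280A rose from similar low levels. ZNF774 on chromosome 15 had 13.7, 9.29 and 17.2 normalized counts against 54.4, 56.4 and 47.9 (1.96 ± 0.28, adjusted p = 3.9e-08). ZNF280A had 18.9, 17.6 and 26.7 against 87.1, 58.7 and 71.4 (1.77 ± 0.24, adjusted p = 1.5e-08). ZNF341, which activates the gene of the signalling factor STAT3, rose least and with little spread, from 78.9, 77.1 and 87.9 to 183, 179 and 179 (1.15 ± 0.14, adjusted p = 9.9e-10). ZNF117 had 17.1, 13.0 and 10.3 against 27.8, 31.6 and 41.8 (1.32 ± 0.32). In these 4 genes too the groups did not overlap.

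The remaining rises rest on few reads. ZNF205-AS1, annotated as an antisense RNA and the only member that is not named as a protein-coding gene, had 14 reads with DMSO and 68 with mitoxantrone, a scaled ratio of 6.14 (interval 3.42 to 11.8). Its fitted value was 2.58 ± 0.44 (adjusted p = 9.5e-07). ZNF843 had 16 and 39 reads, a ratio of 3.08 (interval 1.68 to 5.90). One further row, ZNF26, fell on 44 and 2 reads. It lies on an unplaced scaffold, and whether its reads are shared with the gene of that symbol on chromosome 12, which is not listed, was not tested. It had 28.8 normalized counts in DMSO 2, beside 7.72 and 3.45 in the other DMSO libraries, and 2.42, 0 and 0 with mitoxantrone. Its log2 fold change of -3.93 ± 0.90 became -2.72 without DMSO 2 and -6.80 without mitoxantrone 1.

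Several members lie close together, and neighbours did not always move the same way. ZNF280B and ZNF280A, relatives of the Drosophila insulator protein suppressor of Hairy-wing, lie on the same strand of chromosome 22 with 4.6 kb between them. ZNF280B had 194, 168 and 160.3 normalized counts with DMSO and 60.5, 54.2 and 61.2 with mitoxantrone, so it fell by 1.57 (SE 0.16, adjusted p = 3.4e-12) while ZNF280A rose by 1.77. With DMSO, ZNF280B was at 1.62 FPKM and ZNF280A at 0.523, and with mitoxantrone they were at 0.513 and 1.69, so their order was reversed. Their X-linked relative ZNF280C fell by 1.56, from 427, 402 and 447 normalized counts to 119.8, 155 and 156. Opposite directions were also seen for ZNF273 and ZNF117, 40.8 kb apart on chromosome 7, and for ZNF205-AS1 and ZNF213, 14.2 kb apart on chromosome 16.

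Other neighbours fell together. On chromosome 3, ZNF619, ZNF620 and ZNF621 lie on the same strand with gaps of 15.8 and 6.1 kb and fell by 1.23, 2.06 and 1.34. ZNF621 was the most abundant of them, at 749, 704 and 609 normalized counts against 278, 245 and 292. ZNF619 had 202, 172 and 214 against 93.1, 91.4 and 67.3. On chromosome 1, ZNF670 overlaps ZNF695 on the same strand, ZNF669 lies 21.1 kb away and ZNF496 a further 193.0 kb, and they had log2 fold changes of -1.61, -4.07, -1.34 and -1.33. ZNF215 and ZNF214 on chromosome 11 (14.7 kb apart, -1.64 and -1.37) and ZNF141 and ZNF721 on chromosome 4 (41.0 kb apart, -1.13 and -1.39) also shared their direction.

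**Figure D5:**
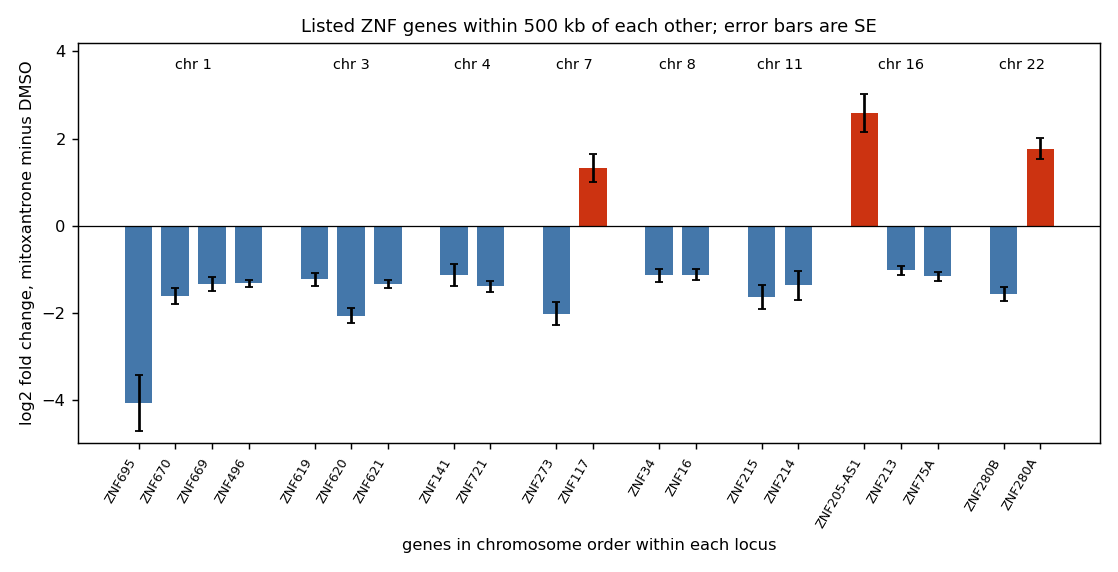
Bars are log2 fold changes of the ZNF genes that lie within 500 kb of another listed ZNF gene outside chromosome 19, in chromosome order, and error bars are SE from the edgeR fit. Blue bars fell and red bars rose. On chromosomes 7, 16 and 22 a gene that rose lies beside one that fell.

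Reads over shared spans cannot be assigned with certainty, since the counting is not stated to use strand. The table's spans of ZNF670 and ZNF695 overlap, and so do those of ZNF721 and the pseudogene ABCA11P (-1.56). Listed genes overlap on the opposite strand of ZNF75A (TIGD7, -1.76), ZNF518A (BLNK, 2.97), ZNF22 (C10orf25, 4.83) and ZNF141 (RP11-478C6.4, 2.5). The 3 overlapping genes that rose had under 10 normalized counts in both groups, which is little beside the 412 of ZNF518A with mitoxantrone but not beside the 24.2 of ZNF141, whose partner had 8.85. KRAB zinc finger genes also share long similar finger arrays, and how the authors' counting treated reads that fit several copies is not given in the sources used here.

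ZNF genes on chromosome 19 gave much the same picture: 51 of the 53 listed were lower (96.2%) with a median of -1.33, beside 49 of 57 and -1.24 outside it, and this difference was not tested. The share of the family that was listed was also close, 56 of 267 annotated protein-coding ZNF genes outside chromosome 19 (21%) and 51 of 250 on it (20.4%). Genes were matched by symbol, so the 56 include the ZNF26 row, which lies on an unplaced scaffold. Most genes of the family are thus not listed, in either place. Among other zinc finger genes, 4 of 7 listed ZBTB genes and 5 of 6 listed ZFP genes were lower. Listed genes with a deposited annotation term for regulation of DNA-templated transcription were lower in 42 of 47 members (89.4%) and in 109 of 156 genes outside the family (69.9%). The gap varied with the term: for DNA binding the shares were 88.5% and 79.5%, and for metal ion binding 88.5% and 51.1%.

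Of a broad list of 39 genes linked to TRIM28 and to silent chromatin, the table held 5. Each of the 5 was lower (median -1.89), where 41.1% of all listed genes were lower. TRIM28 itself and the histone methyltransferase gene SETDB1, which KRAB proteins reach through it, were not listed. Nor were ATF7IP, CBX1, CBX3, CBX5, CHD3, CHD4, HDAC1 and HDAC2 of the same list. The 5 were UHRF1, which reads hemimethylated DNA (1255 to 240.5 normalized counts, -2.38), HELLS, a chromatin remodeller (673 to 145, -2.21), SUV39H2 (426 to 115, -1.89) and SUV39H1 (472 to 154, -1.61), which methylate histone H3, and DNMT1, the maintenance DNA methyltransferase (2669 to 1025, -1.38). Each had no overlap between its groups.

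Letters of ETS and E2F sites were more frequent in the promoter windows of the lower members than over all windows. RefSeq promoter windows (GRCh38.p14, 250 bases before to 50 after the start) were found for 46 members, 40 lower and 6 higher. The first window of each symbol was taken, and its start need not be the one used in these cells. The core letters of ETS factor sites, CCGGAAG on either strand, stood in 16 of the 40 windows of lower members (40%), in 0 of the 6 of higher members and in 10.7% of all 27305 windows. In ZNF670, ZNF131, ZNF22 and ZNF213 the match lay after the start. The ETS letters also stood in 33.7% of the windows of 169 ZNF genes outside chromosome 19 that are not listed. They stood in 47.9% of those of 48 listed ZNF genes on chromosome 19 and in 18.6% of those of all lower listed genes. The difference between listed and unlisted genes was not tested. Letters of E2F sites (TTTGGCGC, TTTCCCGC, TTTCGCGC or TTTGCCGC on either strand) stood in 5 of the 40 (12.5%), against 4.14% of the unlisted ZNF genes, 8.89% of all lower listed genes and 3.33% of all windows. The 5 genes were ZNF367, ZNF214, ZNF502, ZNF131 and ZNF644, and ZNF367 alone had 2 such matches. No ETS match overlapped an E2F match. A match is a description of letters and not a site that was tested, and these motifs were chosen after the values were known.

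The windows of the member with the largest fall, of the 3 largest falls with ETS letters at a mean of at least 50 normalized counts in the DMSO group, and of the gene with the largest rise are shown as examples. The 250 bases before each start are printed 5′ to 3′ on the gene's strand, with E2F letters (ZNF367) or ETS letters (the others) in capitals. They span chr9:96418371-96418620 (minus strand) for ZNF367, chr3:40505789-40506038 (plus) for ZNF620, chr17:5191869-5192118 (minus) for ZNF594, chr11:6926176-6926425 (plus) for ZNF215 and chr16:49664325-49664574 (minus) for ZNF423.
ZNF367: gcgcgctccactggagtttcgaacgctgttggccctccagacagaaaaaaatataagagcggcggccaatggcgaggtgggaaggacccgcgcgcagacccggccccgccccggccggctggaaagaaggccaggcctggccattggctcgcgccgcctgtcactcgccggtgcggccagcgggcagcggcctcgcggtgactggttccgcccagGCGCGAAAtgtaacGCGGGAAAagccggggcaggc
ZNF620: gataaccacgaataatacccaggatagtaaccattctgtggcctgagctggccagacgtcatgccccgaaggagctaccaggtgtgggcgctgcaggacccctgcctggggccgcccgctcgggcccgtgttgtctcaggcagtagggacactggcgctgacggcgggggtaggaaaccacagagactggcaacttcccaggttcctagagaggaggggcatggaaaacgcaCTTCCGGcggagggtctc
ZNF594: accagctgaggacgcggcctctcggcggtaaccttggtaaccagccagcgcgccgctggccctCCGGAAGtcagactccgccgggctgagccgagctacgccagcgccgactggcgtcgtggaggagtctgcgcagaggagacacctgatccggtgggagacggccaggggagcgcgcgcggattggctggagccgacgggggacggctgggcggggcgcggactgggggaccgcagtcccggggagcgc
ZNF215: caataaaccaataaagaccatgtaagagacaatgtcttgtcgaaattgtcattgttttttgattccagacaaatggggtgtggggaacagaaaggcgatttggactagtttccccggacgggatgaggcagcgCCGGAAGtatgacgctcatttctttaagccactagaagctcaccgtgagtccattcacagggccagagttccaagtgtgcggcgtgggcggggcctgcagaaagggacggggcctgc
ZNF423: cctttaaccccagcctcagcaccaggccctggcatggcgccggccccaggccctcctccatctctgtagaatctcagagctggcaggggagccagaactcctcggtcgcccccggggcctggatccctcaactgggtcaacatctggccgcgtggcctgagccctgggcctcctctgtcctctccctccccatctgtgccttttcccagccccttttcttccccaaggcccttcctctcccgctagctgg
In ZNF367 the matches begin at positions -35 and -21 from the start, with 6 bases between them, both on the opposite strand. In ZNF620 the match begins at -18 and in ZNF215 at -117, while ZNF594 has one at -187 and another at 2, just past the printed bases. The ZNF423 window has no match to either set of letters. That window lies inside the table's span of this minus-strand gene (49521435 to 49891830), far below the upper end where the span starts. Builds may differ, but the window may belong to an inner start, and the letters near the outer start were not examined. The windows of lower members held a median of 25 CG dinucleotides, beside 24 for the unlisted ZNF genes outside chromosome 19, 27 for all lower listed genes, 11.5 for the 6 higher members and 14 over all windows. Of the other letters searched, CCAAT stood in 52.5% of the lower members' windows, in 3 of the 6 of higher members and in 35.7% of all windows. It also stood in 40.8% of those of unlisted ZNF genes outside chromosome 19 and 41.6% of those of all lower listed genes. Listed ZNF genes on chromosome 19 were near the lower members, with CCAAT in 52.1% of their windows. The palindromic letters of NRF1 sites stood in 3 of the 40 (7.5%), 1.78% of the unlisted ZNF genes and 1.36% of all windows. TATAAA stood in 1 of the 40 (2.5%), 4.73% of the unlisted ZNF genes and 12% of all windows.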

How the data were processed

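RNA of 6 libraries, 3 with DMSO and 3 with mitoxantrone, was sequenced as paired reads on an Illumina HiSeq, and groups and replicate numbers come from the sample titles. The tools given in the submitters' processing notes, without roles, are HISAT2 2.0.1, cutadapt 1.9.1, SAMtools 0.1.19, HTSeq 0.6.1, Cufflinks 2.2.1 and DESeq2; the build is not given in the sources used here. Per the file headers, the 1 deposited table holds raw read counts and FPKM values per gene and library. It also holds, per the file headers, the authors' mean normalized count (a signal made from counts over size factors), log2 fold change with its SE, a score (fold change over SE), p-value, adjusted p-value and gene length (another value, in bases).

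Size factors were recovered from counts and the authors' mean normalized counts, and library totals from FPKM of at least 20. Groups were compared by the quasi-likelihood F-test of edgeR 4.0.16 under R 4.3.3, without covariate or filter, with Benjamini-Hochberg adjustment over 4546 genes. The code was also run on simulated counts in which most genes were unchanged. Since all listed genes were selected as changed, that run cannot show how reliable the calls are here. KRAB and SCAN domains were searched with profiles (pyhmmer 0.12.3, E-value 1e-05) in 602 translated GENCODE 29 coding sequences, used in place of the RefSeq proteins first planned. Of the members, 55 matched by identifier or, for ZNF280B and ZNF670, by symbol. Fingers were counted by the letter pattern of C2H2 fingers. Named by rule were the 10 largest falls, and the rises (fewer than 10), with a mean of at least 50 counts in the higher group. The rule also took the 5 highest by FPKM, members of the role and p53 lists, those nearest the threshold and those within 100 kb of each other. Some of these, ZNF670 among them, are given by fold change only. ZNF26, ZNF519, ZNF843 and others outside this rule were named after their values were seen. The members and all lists were chosen with earlier results of these data known. Alternatives were other scalings, DESeq2 1.42.0, limma 3.58.1 on log2(FPKM + pseudocount), a count filter, stricter thresholds, a replicate block and leaving out each library.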

Additional observations from a re-analysis of the deposited data

How the results depend on the processing

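None of the 34 named members changed direction under the alternatives tried, and calls over all 57 stayed at 8 higher and 49 lower under the other scalings, DESeq2, an adjusted p of 0.01 and the replicate block. Against a 2-fold change 5 were higher and 38 lower, since that threshold is stricter. The share of all listed genes that passed that test was not counted. With at least 10 counts in 3 libraries 56 members were tested, 8 higher and 48 lower, and limma on log2(FPKM + 1) also called 8 and 48. The median log2 fold change of the members, -1.24, was -1.5 with TMM on the listed genes, -1.33 with library totals, -0.86 with limma on log2(FPKM + 1), and -1.33 to -1.21 with 1 library left out, the lowest without mitoxantrone 3. TMM moved the median of all listed genes by -0.26 and log2(FPKM + 1), which shrinks changes of low genes, by -0.27. The replicate block gave a median of -1.26. Libraries with the same number showed little shared deviation (correlations of -0.067, -0.075 and 0.029 over 2622 genes). This cannot show whether same-numbered libraries were handled together, which the labels do not state. Without ZNF26, ZNF670, ZNF695 and ZNF205-AS1, an exclusion added after seeing the data, 7 were higher and 46 lower, with a median of -1.23. Of 544 values of the 34 named members under alternatives, 536 gave the same call, and the other 8 missed only the test against a 2-fold change. The adjusted p of 0.01 used the main fit again and the 2-fold test had its fold changes, so directions could not change there. Leaving out 1 library moved the fold by over 1.5 times for ZNF26, ZNF423 and ZNF695, whose reads are few. Since all listed genes were selected on these libraries, this says little of genes near the threshold.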
